A study of Mus musculus with 4 samples.

Results

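The early growth response genes Egr1, Egr2 and Egr3 and the nuclear factor of activated T cells genes Nfatc1, Nfatc2 and Nfatc3 were followed in donor Tc that had met allogeneic tissue and leukemia. They are 6 of the 32285 genes counted, found by symbol, and all 6 passed the filter on low counts in every comparison across genes. They were chosen on results of these same data, namely their levels across Tc states and the differences between donor genotypes in CD8+ Tc and CD4+ Tc. Their values are therefore given as a description, with no p-value.

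Antigen binding by the TCR starts 2 routes that meet these genes. In one, calcium entering through ORAI channels activates the phosphatase calcineurin, which removes phosphates from NFAT proteins so that they move into the nucleus; in the other, Ras and MAP kinases activate factors bound upstream of the EGR genes, which are transcribed within minutes to hours. EGR1 is an immediate early factor, and EGR2 and EGR3 are known for restraining Tc responses and for anergy. NFATc2 and NFATc3 are present in resting Tc, whereas NFATc1 has a short isoform that is induced by activation, and NFAT acting without its partner AP-1 is known for driving exhaustion genes. A NFAT transcript level is not a measure of nuclear NFAT.

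Spleen Tc came from 4 BALB/c recipients that had received total body irradiation, 10000 WEHI-3B AML cells (a myelomonocytic mouse leukemia line), C57BL/6 bone marrow and, on day 2, 200000 C57BL/6 Tc. Spleens were taken on day 23, and cells were stained with an oligo-tagged antibody against H-2Kb, which the donors and not the hosts carry. Both donor groups carried floxed Havcr2 alleles: 2 recipients had Havcr2fl/fl donors with no cre (the floxed group) and 2 had Havcr2fl/fl;E8icre/+ donors (the cre group), in which an enhancer of the CD8 locus drives cre in CD8+ cells. Each mouse gave 1 library of 10x 3′ single-cell RNA, so n = 2 per group, and an exact two-sided permutation test of 2 against 2 cannot give a p below 0.333. The labels give no ages of the single mice, and they name a pan-Tc kit where the study's legend names sorted donor Tc.

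The 4 libraries held 1511 to 6737 barcodes and 17693991 to 55045903 UMIs (unique molecular identifiers, each 1 captured RNA molecule). Of 11507 cells kept, 4280 were CD8+ Tc, that is, cells of Cd3-expressing clusters in which Cd8a or Cd8b1 but not Cd4 was counted, and 1764 were CD4+ Tc, in which only Cd4 was. A further 224 Tc had UMIs of both, 538 of neither, and 4701 cells lay outside the Tc clusters; 28 barcodes occurred in more than 1 library. Havcr2, the targeted gene that encodes TIM-3, stood at 61.2 and 7.86 CPM (counts per 1000000 UMIs) in CD8+ Tc of the cre group and at 54.8 and 114 CPM in the floxed group. The library labelled Havcr2fl/fl;E8icre/+ replicate 1 thus lay above floxed replicate 1, and the level in CD8+ Tc does not separate it from the floxed group. In CD4+ Tc Havcr2 stood at 56.1 and 28.9 CPM in the cre group and at 16.8 and 48.9 CPM in the floxed group. CD8+ Tc thus lay well above CD4+ Tc of the same mouse in both floxed libraries, near them in cre replicate 1 and below them in cre replicate 2. The genotype difference of Havcr2 in CD8+ Tc less that in CD4+ Tc was −1.88 on the log2 scale (SE 0.48), which was not called. Whether deletion was incomplete or the label is wrong was not tested, so every genotype direction given for cre replicate 1 rests on its label. Which exons the floxed alleles remove is not given in the sources used here, and 3′ reads may come from outside them. Genotype differences of the 6 genes are therefore also given as the range with each library left out in turn, cre replicate 1 included.

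The EGR and NFAT genes lie on several chromosomes. On GRCm38 with GENCODE M21, Egr2 (ENSMUSG00000037868) spans chr10:67535475-67542188 and Egr3 (ENSMUSG00000033730) chr14:70077203-70082614, both on the plus strand. Nfatc2 (ENSMUSG00000027544) spans chr2:168476410-168601657 on the minus strand, and Nfatc3 (ENSMUSG00000031902) chr8:106058840-106130537 on the plus strand. Egr1 (ENSMUSG00000038418) and Nfatc1 (ENSMUSG00000033016) are on chromosome 18. Nfatc3 shares exon sequence with Esrp2 on the opposite strand, which was counted as a gene of its own.

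The bases upstream of Egr2 are shown because Egr2 is the gene whose genotype difference ran in opposite directions in CD8+ Tc and CD4+ Tc. The stretch covers the 250 bases before a RefSeq transcript start at 67537869 (GRCm38.p6, chr10:67537619-67537868, plus strand), and lies within the span of the Egr2 gene given above. Capitals mark a CArG box, the site bound by serum response factor, which works with ELK proteins at the end of the MAP kinase route, and GACGTCA, a core of the cyclic AMP response element.

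Egr2 upstream: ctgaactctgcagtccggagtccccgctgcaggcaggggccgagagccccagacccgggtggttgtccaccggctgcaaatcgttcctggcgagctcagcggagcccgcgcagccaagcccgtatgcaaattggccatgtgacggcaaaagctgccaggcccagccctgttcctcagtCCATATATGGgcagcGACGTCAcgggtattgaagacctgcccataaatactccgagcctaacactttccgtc

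The CArG box lies 72 to 63 and GACGTCA 57 to 51 bases before the start. RefSeq promoter windows of 300 bases were matched for 3 of the 6 genes (5 for Egr2, 2 for Nfatc2 and 2 for Nfatc3), and Egr1, Egr3 and Nfatc1 had none. Both strands were searched. A CArG box was in 4 of 5 Egr2 windows and in none of the 4 Nfatc2 and Nfatc3 windows, against 1.63% of all 32851 windows. GACGTCA was in 3 of 5 Egr2 windows and in 3.21% of all, and the whole element TGACGTCA, which contains it, in 0 of 5 and 1.79%. The EGR sites GCGGGGGCG and GCGTGGGCG were in none of the 9 windows, and in 2.91% and 0.612% of all. GGAAA, the short NFAT core, was in 4 of 5 Egr2, 2 of 2 Nfatc2 and 1 of 2 Nfatc3 windows but also in 61.3% of all, so its presence separates little. The Egr2 windows overlap one another, and a match of letters is no proof of a site.

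All 6 genes were read in Tc above the level in erythroid cells, which served as background. Not all cells outside the Tc clusters were as low. An unnamed cluster led by Apoe (374 cells) had Egr1 at a mean of 29.1 CPM, against 28.3 CPM in CD8+ Tc. Another led by Cst3 (78 cells, 3 libraries) had Nfatc2 at 60.9 CPM from 18 UMIs, against 36.5 CPM. At 2000 UMIs per cell (each cell thinned to that number, 571 shallower cells left out), an Egr1 UMI was found in 4.12% of CD8+ Tc, 5.55% of CD4+ Tc and 0.183% of erythroid cells. Egr2 gave 1.28%, 2.80% and 0.0913%, and Egr3 0.466%, 1.61% and 0 of 1095 erythroid cells. Before thinning, the shares with an Egr2 UMI were 2.83% of CD8+ Tc (95% Wilson interval 2.37 to 3.37), 5.39% of CD4+ Tc (4.43 to 6.54) and 0.0878% of erythroid cells (0.0155 to 0.496), at median depths of 4803, 4519 and 5336 UMIs; intervals cover counting error only. Nfatc1 was found in 31.6% of thinned CD8+ Tc and 30.3% of CD4+ Tc, Nfatc2 in 7.81% and 14.3%, and Nfatc3 in 22.3% and 28.0%. Erythroid shares were 0.639%, 0.274% and 3.56%. Nfatc3 was the member with the most UMIs outside the Tc clusters (4496), at a mean of 48.3 CPM there and at 26.7 CPM in erythroid cells.

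**Figure D1:**
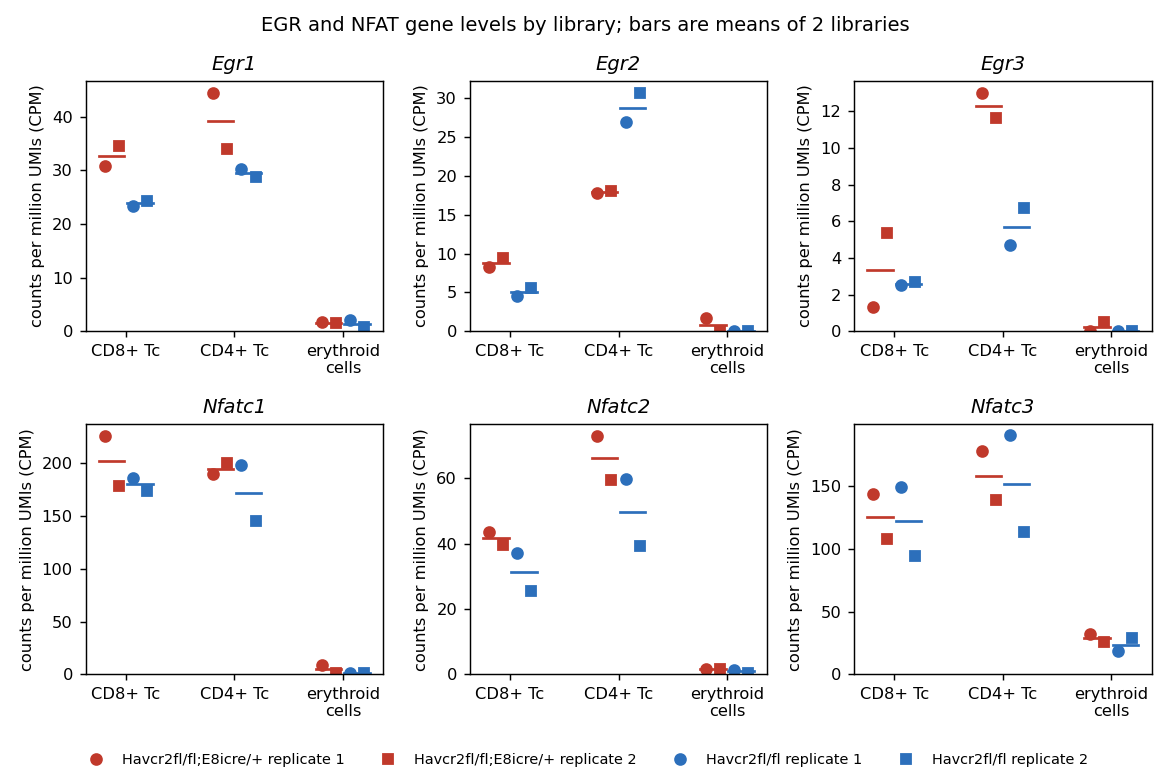
CPM (vertical axes from 0) of each gene in CD8+ Tc, CD4+ Tc and erythroid cells, 1 point per library, with bars at the mean of the 2 libraries of a genotype. Egr2 was higher in the cre group in CD8+ Tc (8.29 and 9.41 against 4.52 and 5.57 CPM) and lower in CD4+ Tc (17.8 and 18.1 against 26.9 and 30.7 CPM), and erythroid cells lay far below Tc for all 6 genes.

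CD4+ Tc held more Egr2, Egr3, Nfatc2 and Nfatc3 RNA relative to all UMIs than CD8+ Tc of the same mouse in all 4 libraries. Egr2, the tolerance-linked EGR gene, stood at 8.29, 9.41, 4.52 and 5.57 CPM in CD8+ Tc of cre replicates 1 and 2 and floxed replicates 1 and 2, and at 17.8, 18.1, 26.9 and 30.7 CPM in their CD4+ Tc. No CD8+ value reached a CD4+ value, and the log2 difference was −1.48 (SE 0.25). Egr3 was at 1.34, 5.33, 2.51 and 2.68 CPM in CD8+ Tc and at 13.0, 11.6, 4.71 and 6.71 CPM in CD4+ Tc. These ranges overlapped across mice but not within any mouse, with a log2 difference of −1.66 (SE 0.35). Nfatc2, like Nfatc3 an NFAT gene of resting Tc, was at 43.6, 39.7, 37.2 and 25.6 CPM against 72.9, 59.4, 59.8 and 39.3 CPM, a log2 difference of −0.59 (SE 0.08).

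Nfatc3 differed less. It was at 143, 108, 149 and 93.9 CPM in CD8+ Tc and 177, 139, 190 and 113 CPM in CD4+ Tc, a log2 difference of −0.26 (SE 0.06). Egr1 was at 30.8, 34.5, 23.4 and 24.4 CPM in CD8+ Tc and 44.5, 34.1, 30.3 and 28.8 CPM in CD4+ Tc, lower in CD8+ Tc in 3 of 4 libraries, with a log2 difference of −0.21 (SE 0.12). Nfatc1 was at 225, 178, 186 and 174 CPM against 189, 200, 198 and 145 CPM and lay on either side in 2 libraries each (0.12, SE 0.08). Of all genes tested, 24.9% passed the threshold in either direction, 11.9% were called lower in CD8+ Tc, and 24.5% were lower in CD8+ Tc in every library; of the 6 genes, Egr2, Egr3, Nfatc2 and Nfatc3 were called lower (edgeR quasi-likelihood test, mouse as a block).

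Genes of the pathway around these factors were called in both directions between the classes, from lists of 127 genes written with earlier results known. Counts are of genes past an adjusted p of 0.05 (edgeR, Benjamini-Hochberg over all 10322 genes, whose median log2 difference was 0.02). Of 16 genes of calcium entry and calcineurin, 5 were higher and 4 lower in CD8+ Tc, with a median of 0.05. The channel genes Itpr1 (−1.05, adjusted p = 1.85e-05) and Orai1 (−0.79, adjusted p = 1.28e-06) were lower, and the calcineurin catalytic subunits Ppp3ca (0.38, adjusted p = 0.00621) and Ppp3cb (0.33, adjusted p = 0.0169) higher. Without cre replicate 2 the list gave 0 higher and 2 lower, without cre replicate 1 it gave 2 and 4, and without floxed replicate 1 it gave 3 and 2. Another list joins calcineurin inhibitors, immunophilins and NFAT export kinases. Of its 10 tested genes, the immunophilin gene Fkbp1a was lower (−0.26, adjusted p = 0.00467) and the immunophilin gene Ppia higher (0.13, adjusted p = 0.0398), with a median of −0.04. Without either cre replicate or without floxed replicate 1, 0 were higher and 1 lower.

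Of 13 genes on the Ras-MAPK route, 1 was higher and 3 lower, with a median of −0.01. The kinase gene Braf was higher (0.37, adjusted p = 0.0234), and those lower included the transcription factor gene Elk4 (−0.37, adjusted p = 0.00656) and the exchange factor gene Rasgrp1 (−0.21, adjusted p = 0.0326). With each library left out in turn, 0 were higher and 2 lower. Of 9 MAPK phosphatases and brakes, 2 were higher and 2 lower, with a median of 0.07; the receptor kinase antagonists Spry2 (2.83, adjusted p = 2.57e-06) and Spry1 (−1.95, adjusted p = 0.000820) went opposite ways, and the phosphatases Dusp2 (−0.58, adjusted p = 1.04e-05) and Dusp10 (0.58, adjusted p = 0.00630) did too. Of the family members and corepressors, Egr4 and Nfatc4 had no UMI in CD8+ or CD4+ Tc of any library, and of 4 tested Nab1, a corepressor of EGR proteins, was higher in CD8+ Tc (0.29, adjusted p = 0.00980), a call lost without cre replicate 1.

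Genes that TCR signals induce early were lower in CD8+ Tc more often than higher, 8 against 4 of 16, with a median of −0.64. Cd40lg (−3.66, adjusted p = 1.52e-08), Il2ra (−3.03, adjusted p = 4.15e-08) and the costimulatory receptor gene Tnfrsf4 (−2.73, adjusted p = 5.34e-11) are known for CD4+ Tc, while Nr4a2, which encodes a nuclear receptor of exhausted CD8+ Tc, was higher (1.95, adjusted p = 3.05e-07). Leaving out 1 library gave 3 or 4 higher and 6 to 9 lower. Of 11 tolerance genes downstream of EGR2, EGR3 or NFAT, 4 were higher and 4 lower, with a median of 0.07. Crtam (1.94, adjusted p = 1.76e-06) and the inhibitory receptor gene Lag3 (1.18, adjusted p = 6.37e-08) were higher, and Izumo1r (−1.93, adjusted p = 1.84e-09) and the ubiquitin ligase gene Rnf128 (−1.67, adjusted p = 0.000135) lower.

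Dissociation and heat stress genes moved with the same comparison. Of 12 tested, 8 were lower in CD8+ Tc and 0 higher, with a median of −0.46, among them Hspa1b (−1.37, adjusted p = 0.00209), Dusp1 (−1.35, adjusted p = 3.90e-07), Jun (−1.23, adjusted p = 0.000910) and Junb (−0.83, adjusted p = 4.05e-07). Their summed level was 2545 to 3518 CPM in CD8+ Tc and 2925 to 4246 CPM in CD4+ Tc, and none of the 16 genes was at 0 in every library. Leaving out 1 library gave 5 to 8 lower. Egr1 is itself an immediate early gene, and the part of cell handling in the levels of the EGR genes was not tested. Of 4 tested NK cell markers 3 were higher in CD8+ Tc (Klre1 2.86, adjusted p = 2.76e-07; Fcer1g 2.08, adjusted p = 0.00567; Klrb1c 1.66, adjusted p = 0.0250), at sums of 52.0 to 114 CPM against 14.7 to 33.6 CPM, with Ncr1 and Klra8 at 0 in CD8+ Tc; leaving out 1 library gave 1 to 3 NK cell markers and 0 to 2 myeloid markers. Of 7 myeloid and leukemia markers only Fcer1g was higher, of 2 B cell markers Ighm was lower (−1.01, adjusted p = 1.84e-07), and of 7 erythroid markers 0 passed (edgeR); without floxed replicate 1, 4 of 8 erythroid markers were lower.

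Across CD8+ Tc states the 3 EGR genes were low in effector clusters, though not in these alone, and the NFAT genes each had a different order. States are clusters made without the 6 genes among the variable genes and named with the suffix -like from marker lists, and since clusters are defined by expression no test was made between them. The 8 clusters described hold 238 to 1184 cells each. A cluster led by hemoglobin RNA (42 cells) and a naive or memory-like one (38 cells, 1 library with at least 10) are left aside. In that library the naive or memory-like cluster had Egr1 at 105, Egr2 at 19.6 and Egr3 at 26.1 CPM, above the means of the 8 clusters. Over all its cells it had 16, 3 and 4 UMIs of these genes. Resident-like cells had 3 of 6 markers raised (Itga1, Cxcr6 and Rgs1, but not Itgae, Itga4 or Rgs2). T_PEX-like cells had 6 of 6, among them Tcf7, Slamf6 and Id3. Of the 8 clusters these 2 carried the most Egr2, at means of 13.4 and 13.1 CPM over the 4 libraries. T_TEX-like cells (Tox, Pdcd1, Lag3) followed at 7.14 CPM. Teff-like cells, short-term effector-like cells and the cluster led by Klf3, Klf2 and Cx3cr1 had 2 Egr2 UMIs each. Cycling cells had Egr2 at 3.92 CPM. An unnamed cluster led by Dtl (375 cells) was low too, with Egr1 at 9.59, Egr2 at 2.38 and Egr3 at 0.552 CPM.

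Egr2 varied between mice within a state. In resident-like cells it was at 22.3, 15.3, 4.21 and 11.6 CPM in cre replicates 1 and 2 and floxed replicates 1 and 2, and in T_PEX-like cells at 17.3, 19.2, 8.58 and 7.53 CPM. In T_TEX-like cells it was at 6.31, 0, 15.5 and 6.74 CPM. The cre libraries lay above the floxed ones in the first and second of these states and not in T_TEX-like cells; resident-like, T_PEX-like and T_TEX-like ranges overlap, so their order does not stand beyond the spread of the libraries. After thinning, 2.16%, 2.31% and 0.989% of resident-like, T_PEX-like and T_TEX-like cells had an Egr2 UMI.

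Egr1 had another order. T_TEX-like cells were highest, at 43.0, 58.5, 58.6 and 45.0 CPM (51.3 ± 8.46, SD, n = 4), then resident-like cells at 39.9, 48.4, 32.6 and 17.4 CPM and cycling cells at 41.2, 14.8, 24.2 and 33.4 CPM. Short-term effector-like cells were lowest at 0 to 21.1 CPM, from 6 UMIs. Neighbours in this order overlap, whereas all 4 T_TEX-like values lie above all values of the Teff-like, short-term effector-like and Klf3-led clusters. Egr3, with 73 UMIs in all CD8+ Tc, had its highest mean in resident-like cells (5.79 CPM) and no UMI in 425 Teff-like cells, which allows a share of up to 0.706%, nor in 378 cells of the Klf3-led cluster, which allows up to 0.794%. These limits are on cells with a UMI, not on cells that express Egr3.

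Nfatc1 was highest in resident-like cells at 300, 253, 242 and 256 CPM, followed by T_TEX-like cells at 274, 230, 229 and 230 CPM and Teff-like cells at 248, 228, 245 and 221 CPM. These 3 states overlap. T_PEX-like cells stood at 233, 195, 182 and 153 CPM, and short-term effector-like cells, the lowest, at 117, 74.3, 101 and 100 CPM, below every library of those 4 states. Nfatc3 had its highest mean in short-term effector-like cells, at 337, 145, 250 and 179 CPM. Cycling cells were lowest for Nfatc3 at 108, 81.1, 116 and 82.9 CPM, which do not overlap with these. The short-term effector-like range overlapped those of Teff-like (104 to 202 CPM), Klf3-led (99.7 to 197 CPM), T_PEX-like (92.8 to 161 CPM) and resident-like cells (91.8 to 150 CPM). The orders of Nfatc1 and Nfatc3 were not the reverse of each other, with a Pearson r of −0.04 over library-by-state sums. Nfatc2 ranged from a mean of 23.3 CPM in T_TEX-like cells to 52.3 CPM in short-term effector-like cells.

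Within each mouse, T_TEX-like cells held more Egr1 and Nfatc1 RNA relative to all UMIs than T_PEX-like cells, the progenitor state. On the log2(CPM + 10) scale the Egr1 difference was 0.64, 0.38, 1.34 and 1.13 in cre replicates 1 and 2 and floxed replicates 1 and 2 (0.87 ± 0.44, SD, n = 4), and the Nfatc1 difference was 0.23, 0.23, 0.32 and 0.56 (0.33 ± 0.16). Both were above 0 in 4 of 4 libraries, as were 15.7% of all genes, and 17.6% were below 0 in all 4. The share of thinned cells with an Egr1 UMI did not differ this way in the cre group. Its mean there was 6.08% in T_TEX-like and 6.20% in T_PEX-like cells, and 8.42% and 1.93% in the floxed group. Nfatc2 was lower in T_TEX-like cells in 3 libraries, at −1.45, 0.08, −0.44 and −0.95 (−0.69 ± 0.66). Egr2 was at −0.74, −1.54, 0.46 and −0.07 (−0.47 ± 0.87), Egr3 at −0.34, −0.45, 0.60 and −0.59 (−0.19 ± 0.54) and Nfatc3 at −0.07, 0.15, −0.17 and −0.21 (−0.08 ± 0.16), each higher in 1 of 4. The summed level of the TCR-induced early genes was 1354 ± 276 CPM in T_TEX-like and 711 ± 134 CPM in T_PEX-like cells, led in T_TEX-like cells by Nr4a2, Tnfrsf9 and Ifng; Nr4a2 is one of the markers that named the state. The stress list stood at 2592 ± 328 and 2778 ± 441 CPM.

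**Figure D2:**
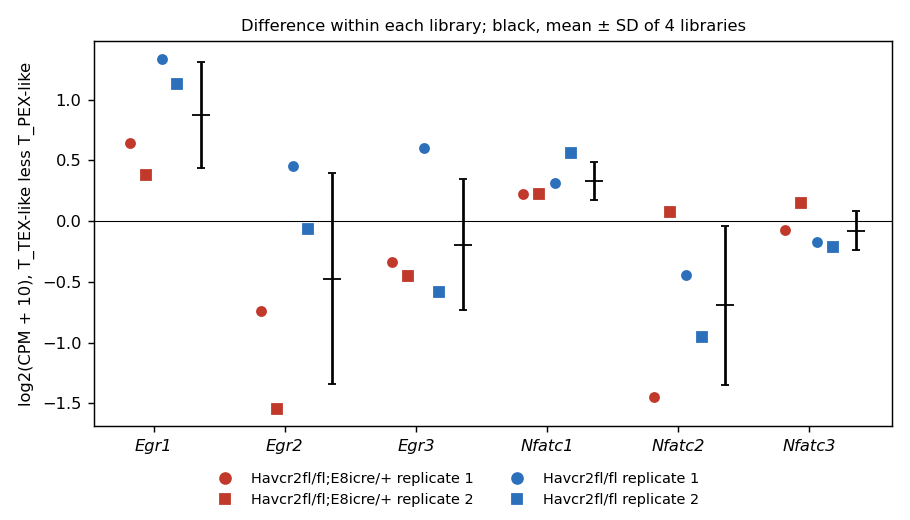
Difference of T_TEX-like from T_PEX-like CD8+ Tc within each library on the log2(CPM + 10) scale, 1 point per library, with the mean ± SD of the 4 libraries in black. Egr1 and Nfatc1 lay above 0 in all 4 libraries, whereas the other 4 genes lay above 0 in 1 library each.

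CD4+ Tc states spread Egr3 apart from Egr1 and Egr2. Cytotoxic-like CD4+ Tc (330 cells, with Gzmb, Gzmk and Prf1) had the highest mean Egr1 (61.6 CPM), Egr2 (40.4 CPM) and Nfatc1 (281 CPM). Precursor memory-like cells (909 cells, 4 of 7 markers raised, among them Tcf7, Slamf6 and Id3) followed for Egr2 (32.6 CPM) and Nfatc1 (218 CPM). Egr2 was at 22.2, 28.7, 26.9 and 83.6 CPM in cytotoxic-like and at 31.8, 19.8, 36.1 and 42.8 CPM in precursor memory-like cells, so the order of the 2 rests on floxed replicate 2. Cycling CD4+ Tc were low, at 3.86, 3.12, 19.1 and 8.24 CPM. Regulatory-like cells (Foxp3, Ikzf2; 107 cells, 3 libraries with at least 10) had the highest mean Egr3 (28.2 CPM, from 15 UMIs) and Nfatc2 (89.7 CPM), and an unnamed cluster of 119 cells with Itga1 and Cxcr6 raised had the next Egr3 (16.8 CPM, 13 UMIs). In both clusters the Egr3 UMIs were from the cre group alone: 35.4 and 49.1 CPM against 0 in floxed replicate 2 among regulatory-like cells (16 cells there), and 43.8 and 23.5 against 0 and 0 CPM in the unnamed cluster, where the floxed libraries held 14 and 32 cells. The Nfatc2 rank of regulatory-like cells also rests on the cre group, at a mean of 109 CPM against 51.2 CPM in floxed replicate 2. In the floxed group the unnamed cluster had a higher Nfatc2 mean (72.4 CPM).

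**Figure D3:**
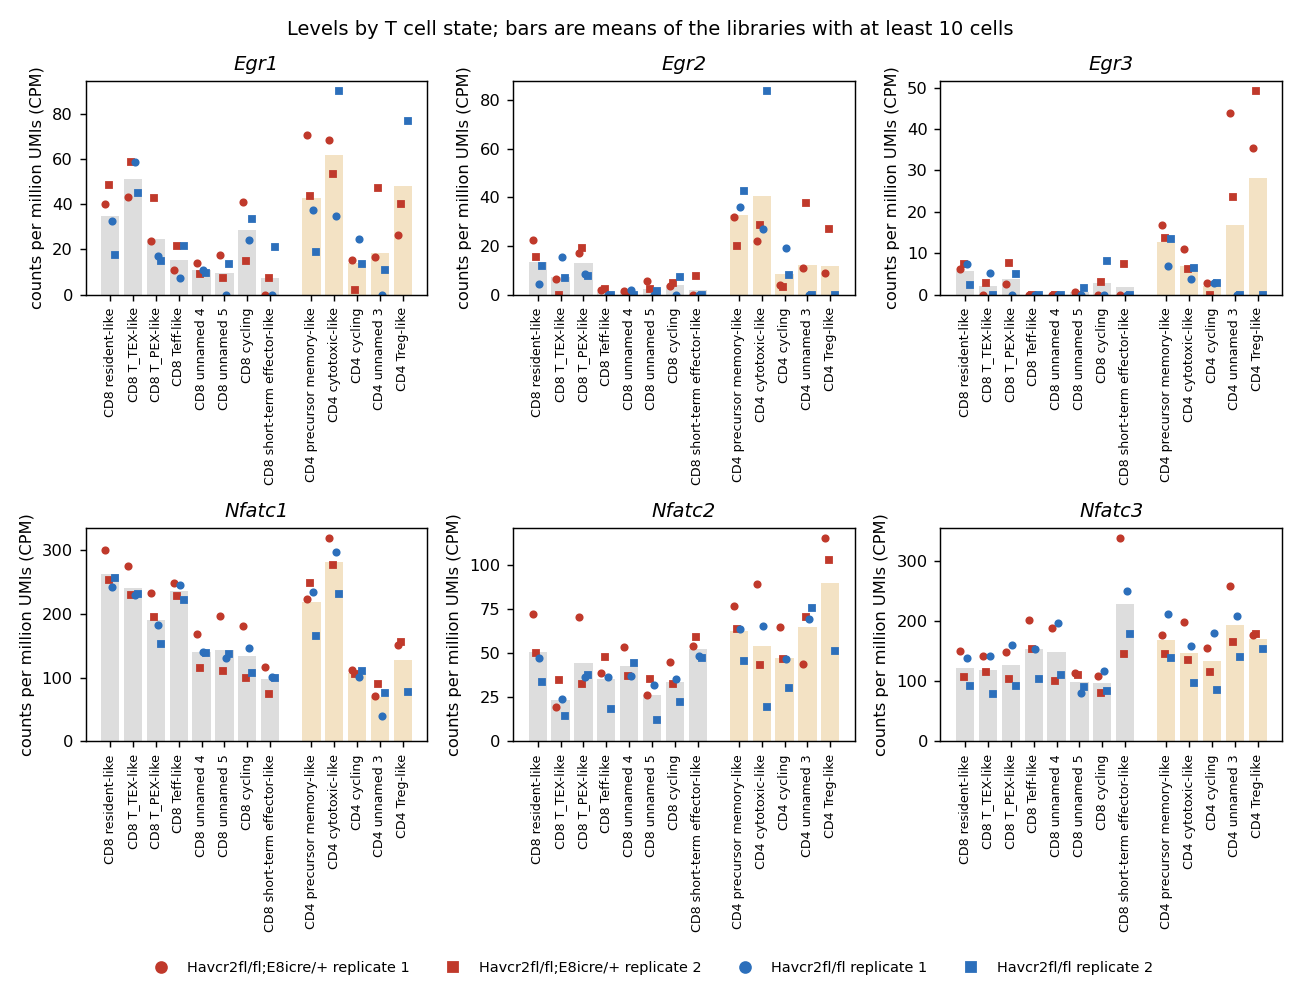
CPM (vertical axes from 0) of each gene in 8 clusters of CD8+ Tc (grey) and 5 of CD4+ Tc (tan), with bars at the mean over libraries with at least 10 cells and 1 point per library. Egr2 was near 0 in Teff-like, Klf3-led (unnamed 4) and short-term effector-like CD8+ Tc, and Nfatc1 and Nfatc3 had opposite extremes in short-term effector-like cells.

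Between genotypes, Egr2 was the only one of the 6 genes whose libraries stood apart in opposite directions in the 2 Tc classes. In CD8+ Tc, where cre is meant to act, it was higher in the cre group, at 8.29 and 9.41 against 4.52 and 5.57 CPM. These values rest on 74, 67, 18 and 27 UMIs (log2 difference 0.77, SE 0.32), and the Havcr2 level in CD8+ Tc did not separate cre replicate 1 from the floxed group. In CD4+ Tc, where the E8i enhancer is not meant to drive cre, Egr2 was lower, at 17.8 and 18.1 against 26.9 and 30.7 CPM. The UMIs there were 52, 70, 40 and 32 (log2 difference −0.72, SE 0.26). The difference between classes was 1.52 (SE 0.33), and 1.44 to 1.59 with each library left out in turn; the differences within CD8+ Tc and CD4+ Tc were then 0.62 to 0.92 and −0.83 to −0.63. Separation in these directions, higher with cre in CD8+ Tc and lower in CD4+ Tc, was found for 0.792% of genes. Genes apart in the reverse directions are not in that share, and Egr2 was chosen for its pattern.

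The Egr2 contrast depended on how Tc were put into classes. When all cells of a cluster took the class of most of its cells, 863 of the 1764 CD4+ Tc went into clusters counted as CD8+ and 150 of 4280 CD8+ Tc into clusters counted as CD4+. Egr2 then stood at 9.27 and 11.5 against 8.41 and 8.14 CPM in CD8+ clusters and at 24.8 and 22.7 against 26.7 and 17.0 CPM in CD4+ clusters, with log2 differences of 0.29 and 0.05 and a difference between classes of 0.24. Tc with neither a CD4 nor a CD8 UMI, which the assignment by UMI leaves out, had Egr2 at 22.2 and 41.3 against 24.5 and 5.37 CPM. With clusters weighted equally the difference between classes was 1.05, and with every cell weighted equally 1.21. Equal weights of clusters also made the genotypes overlap in CD4+ Tc, at 17.2 and 22.3 against 20.5 and 33.6 CPM. Group means of Egr2 were lower with cre in precursor memory-like, cytotoxic-like and cycling CD4+ Tc. They were higher in regulatory-like cells (17.8 against 0 CPM, 7 UMIs) and the Itga1-raised cluster (24.3 against 0 CPM, 10 UMIs). After thinning to equal depth, the share of CD8+ Tc with an Egr2 UMI was 1.86% and 1.05% in the cre group and 0.424% and 1.05% in the floxed group, which meet, and that of CD4+ Tc was 2.31% and 2.74% against 2.99% and 3.86%.

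Egr1 was higher in the cre group in both classes, at 30.8 and 34.5 against 23.4 and 24.4 CPM in CD8+ Tc (log2 difference 0.42, SE 0.20) and at 44.5 and 34.1 against 30.3 and 28.8 CPM in CD4+ Tc (0.35, SE 0.24). Neither pair of ranges overlapped, and with 1 library left out the differences were 0.28 to 0.54 and 0.20 to 0.50. Egr3 overlapped in CD8+ Tc, at 1.34 and 5.33 against 2.51 and 2.68 CPM (0.31, SE 0.66), and its direction there turned with the cre library left out, from −1.02 without cre replicate 2 to 1.04 without cre replicate 1. In CD4+ Tc Egr3 stood at 13.0 and 11.6 against 4.71 and 6.71 CPM, with no overlap (1.08, SE 0.41, and 0.80 to 1.33 with 1 library left out), and 15 and 13 of its 97 UMIs came from the regulatory-like and Itga1-raised clusters above.

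The NFAT genes differed by at most 0.38 on the log2 scale between genotypes. Nfatc2 in CD8+ Tc was at 43.6 and 39.7 against 37.2 and 25.6 CPM (0.38, SE 0.22), which do not overlap, and the difference ran from 0.12 without floxed replicate 2 to 0.67 without floxed replicate 1. In CD4+ Tc its ranges overlapped (0.34, SE 0.24), and leaving out the same libraries gave 0.09 and 0.68. Nfatc1 differed by 0.13 in either class (SE 0.19 and 0.22), and Nfatc3 by 0.01 and −0.01 (SE 0.24 and 0.26). Both changed sign in either class with 1 library left out, from −0.00 to 0.24 and −0.07 to 0.37 for Nfatc1 and from −0.29 to 0.38 and −0.32 to 0.41 for Nfatc3. The difference between classes was 0.08 (SE 0.26) for Egr1, −0.82 (SE 0.80) for Egr3, −0.00 (SE 0.16) for Nfatc1, 0.02 (SE 0.18) for Nfatc2 and 0.01 (SE 0.12) for Nfatc3. With 1 library left out these ran from −0.19 to 0.35 for Egr1, from −2.10 without cre replicate 2 to 0.02 without cre replicate 1 for Egr3, from −0.22 to 0.21 for Nfatc1, from −0.06 to 0.10 for Nfatc2 and from −0.03 to 0.03 for Nfatc3. With classes by cluster they were −0.54 for Egr1, −1.98 for Egr3, −0.25 for Nfatc1, 0.20 for Nfatc2 and −0.02 for Nfatc3.

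**Figure D4:**
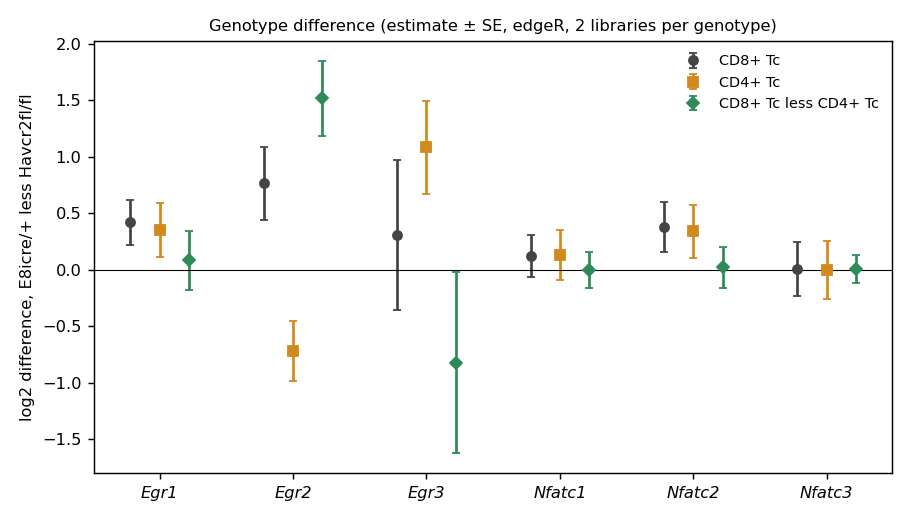
Log2 difference between genotypes (cre group less floxed group, edgeR estimate ± SE derived from its F statistic, 2 libraries per genotype) in CD8+ Tc, in CD4+ Tc, and the first less the second, for each gene. Egr2 is at 0.77 in CD8+ Tc and −0.72 in CD4+ Tc, and the Nfatc1, Nfatc2 and Nfatc3 differences between classes are within 1 SE of 0.

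None of the 6 genes passed an adjusted p of 0.05 in a genotype comparison, where few genes did. In CD8+ Tc 0.0275% of genes (3 of 10891) passed, in CD4+ Tc 0.0103% (1 of 9662) and for the difference between classes 0.0184% (2 of 10891); at an unadjusted p under 0.05 these were 281, 307 and 474 genes, and DESeq2 called 4, 5 and 2. Libraries of the 2 genotypes did not overlap for Egr1, Egr2 and Nfatc2 in CD8+ Tc, all higher in the cre group, as for 15.6% of genes, with 11.3% lower. In CD4+ Tc Egr1 and Egr3 were apart and higher, as were 18.9% of genes, and Egr2 was apart and lower, as were 12.3%. With 2 libraries per genotype such separation is frequent, and nothing about the 6 genes is read from these counts.

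The pathway lists gave 0 genes past the threshold in the genotype comparisons by edgeR. With each library left out in turn, the lists of the pathway gave at most 1 gene each, namely 1 tolerance gene in CD4+ Tc without cre replicate 1 and 1 TCR-induced early gene there without cre replicate 2, and 1 of each for the difference between classes without cre replicate 1. In CD8+ Tc the smallest unadjusted p-values among the TCR-induced early genes were those of Ifng (−0.44, SE 0.17) and Myc (0.71, SE 0.37), and among the tolerance genes those of the Notch regulator gene Dtx1 (−0.42, SE 0.22) and Izumo1r (0.41, SE 0.23), all at an adjusted p of 1.00 by edgeR. In CD4+ Tc, Dtx1, an anergy gene downstream of NFAT and EGR, had a log2 difference of −1.45 (SE 0.33, adjusted p = 0.604 by edgeR) and Ndrg1, an EGR2 target in anergy, of −1.11 (SE 0.47). Stress genes summed to 2663 and 2982 against 2545 and 3518 CPM in CD8+ Tc and to 3193 and 3427 against 2925 and 4246 CPM in CD4+ Tc, overlapping in both. The 8 myeloid and leukemia markers, none at 0 in every library, did not overlap in CD4+ Tc. They summed to 39.0 and 23.8 CPM in the cre group and 57.2 and 62.3 CPM in the floxed group. Their sums overlapped in CD8+ Tc (38.1 and 93.9 against 46.0 and 93.5 CPM). Fcer1g, an Fc receptor subunit gene that some Tc also express, made up 7.39 and 66.7 against 5.28 and 46.9 CPM of the sum in CD8+ Tc. The granule protease genes Prtn3 and Elane did not overlap in CD8+ Tc and were lower in the cre group. Prtn3 was at 5.15 and 3.37 against 11.3 and 16.5 CPM (−1.74, SE 0.33, adjusted p = 0.428 by edgeR). Elane was at 2.91 and 1.40 against 5.53 and 7.22 CPM (−1.58, SE 0.45, adjusted p = 0.9999 by edgeR). Other genes of the list went otherwise in CD8+ Tc. Cd68 did not overlap and was higher in the cre group, at 8.40 and 9.97 against 5.78 and 6.40 CPM. Mpo overlapped, at 7.50 and 4.49 against 9.04 and 7.43 CPM. In CD4+ Tc the smallest unadjusted p-values of the list were those of Prtn3 (−1.27, SE 0.43) and Mpo (−1.21, SE 0.47). Cells outside the Tc clusters had Egr2 at 0.0712 to 0.381 CPM per library. Erythroid markers summed to 5153 and 7235 against 256 and 6601 CPM in CD4+ Tc, and 5 of 8 were called higher in the cre group without floxed replicate 2. The part of these sums in the EGR values was not tested.

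The 3 EGR genes were found in the same cells more often than their separate shares give. At 2000 UMIs per cell, 18 of 4074 CD8+ Tc had UMIs of both Egr1 and Egr2, where the product of the shares within each library and state comes to 2.53 cells. Egr1 with Egr3 gave 7 cells against 0.926, and Egr2 with Egr3 gave 3 against 0.419. In 1676 CD4+ Tc the numbers were 23 against 2.91, 15 against 1.64 and 10 against 0.839. All 6 observed numbers stayed the same without the cells of the highest doublet scores. Pairs of NFAT genes lay close to the product instead, with Nfatc1 and Nfatc3 together in 295 CD8+ Tc against 287 and in 142 CD4+ Tc against 143. Counts of cells from 4 mice are given as a description, and cells were not treated as replicates.

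**Figure D5:**
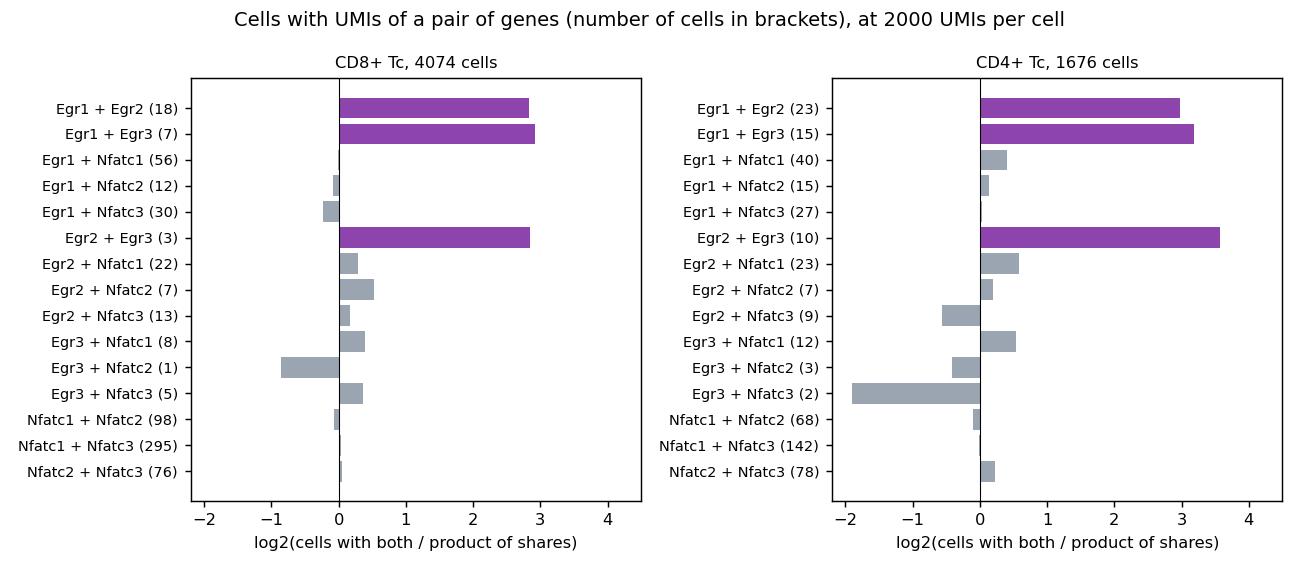
Cells with UMIs of both genes of a pair, divided by the product of the genes' shares within each library and state (log2, horizontal axes), in thinned CD8+ Tc and CD4+ Tc, with the number of cells in brackets. The 3 pairs of EGR genes (purple) stand at the right in both classes, and pairs of NFAT genes stand near 0.

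Over 32 sums of CD8+ Tc (8 states in each of 4 libraries), Egr1 ran most closely with Nfatc1 among the 6 genes (Pearson r = 0.59), and Nfatc2 with Nfatc3 (r = 0.52). Egr2 and Egr3 had an r of 0.69, but Egr3 had 73 UMIs in CD8+ Tc and none in Teff-like or Klf3-led cells. The sums share libraries, depth and the definition of the states, so r is a description with no p. Among 5914 or 5915 other genes with a mean of at least 20 CPM, Nfatc1 was most like the inhibitory receptor gene Lag3 (r = 0.87) and Zap70 (r = 0.86), which encodes a kinase next to the TCR, then Tmem135, Arid5b and Vps54. Egr2 was most like Nrp1 (r = 0.73) and Zfp36l1 (r = 0.70), then Kdm2b, Ylpm1 and Tnfaip8. Egr1 was most like Riok1 and Tacc2 (both r = 0.71), then Smg6, Spag9 and Kctd9. Nfatc2 was most like Celf1 (r = 0.73), Mbp, Uhrf1bp1l, Srpk2 and Rnf19b, and Nfatc3 most like Tram1 (r = 0.84), Prrc2b, Ppp1r9b, Spata13 and Iqgap1. Egr3 had under 100 UMIs in CD8+ Tc, so the genes most like it are not listed, and its r with Egr2 has the same limit.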

How the data were processed

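Single-cell RNA of spleen Tc from 4 mice was analysed. The authors deposited UMI counts (whole numbers for each gene in each cell), made with Cell Ranger 6.1.2 on mm10 per the submitters' processing notes and not normalized; the tag counts entered no library size. Groups came from the sample titles. Barcodes under 500 genes or 1000 UMIs, or above 10% mitochondrial UMIs, were dropped, as were doublets by Scrublet (2, 5, 9 and 109 per library; since it called few cells in 3 libraries, removal of the highest doublet scores is an alternative).

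Libraries were integrated and clustered with Seurat 5.3.0 in R 4.3.3 (2000 variable genes without the 6 genes and Havcr2, 30 dimensions, resolutions 0.6 for all cells, 0.3 for CD8+ Tc and 0.2 for CD4+ Tc). Clusters took the name of the marker list with the most raised genes, if these were 3 or more and not outnumbered by the list's other genes, and stayed unnamed where another list held more of the cluster's top 10 genes. Other steps used Python 3.11.15 with scanpy 1.11.5. UMIs were summed per library and class, passed through filterByExpr and compared by edgeR 4.0.16 with the quasi-likelihood test after TMM scaling (Benjamini-Hochberg threshold 0.05), with the mouse as a block where both classes entered. The procedure was tested on simulated data. Each SE of an edgeR log2 difference is its absolute value divided by the square root of the quasi-likelihood F statistic. CPM is counts per 1000000 UMIs of the summed cells; log2 ratios of CPM use a pseudocount of 10, or of 1 where cells or clusters were weighted equally.

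The members and the 12 gene lists were chosen with earlier results of these data known. All 6 members are named; from each list up to 4 genes by largest difference past the threshold, else up to 2 by smallest p; for likeness the 5 highest correlations. Tigit, Trat1, Xlr, Prdm16 and Eps8l1 were chosen after their values were seen, and 1 gene that the rule names is not reported here. Alternatives were edgeR with DESeq2 size factors, DESeq2 1.42.0, each library left out, a block for the replicate number, all genes without the low-count filter, cell filters of 1000 genes and 5%, doublet scores, classes by cluster, donor tag, thinning to 2000 UMIs, equal weights of cells or clusters, other resolutions, no integration, and the members among the variable genes. Leaving out libraries for the list counts was added after the data were seen.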

Additional observations from a re-analysis of the deposited data

Results flagged for a closer look

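The genotype difference of Egr2 differed between Tc classes by 1.52 on the log2 scale. Every cre library lay above every floxed library in CD8+ Tc and below in CD4+ Tc, and Egr2 was chosen for this pattern, so no test is given. In CD4+ Tc the genotypes overlapped with clusters weighted equally and with classes by cluster. Of all genes, 2 passed the test of this difference (edgeR interaction, mouse as a block). Tigit, an inhibitory receptor gene, differed by −3.37 (adjusted p = 0.00661 by edgeR), at 4.26 and 3.93 CPM in CD8+ Tc of the cre group against 22.4 and 21.3 CPM, and at 19.2 and 26.9 against 11.4 and 11.5 CPM in CD4+ Tc. Trat1, which encodes a TCR-associated adaptor, differed by 2.19 (adjusted p = 0.0145 by edgeR), at 16.6 and 11.8 against 7.03 and 6.40 CPM in CD8+ Tc and at 42.8 and 24.3 against 71.9 and 69.1 CPM in CD4+ Tc. Trat1 had the directions of Egr2 in both classes, and Tigit the opposite ones.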

How the results depend on the processing

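Values of the 6 genes kept their direction wherever they were called. Counts of called genes moved with the processing, and the cause was not tested. With no filter on low counts 90 genes were called between genotypes in CD8+ Tc, 47 in CD4+ Tc and 59 for the difference between classes. With classes by cluster the counts were 1, 4 and 17, and DESeq2 called 5 in CD4+ Tc. The stricter cell filter and removal of the highest doublet scores each left 0 in CD4+ Tc (1 in the analysis as reported) and 4 for the difference between classes, and thinning left 2 in CD4+ Tc. Leaving out 1 library gave 1 to 20 in CD8+ Tc (20 without cre replicate 1), 3 to 29 in CD4+ Tc (29 without it) and 5 to 47 between classes (47 without it). Between CD8+ and CD4+ Tc, DESeq2 called 1510 genes, thinning left 1429, and leaving out 1 library gave 1712 to 2193.

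With the replicate block 0 genes were called in CD8+ Tc and 8 in CD4+ Tc. Deviations of same-numbered libraries correlated over all genes at −0.17 in CD8+ Tc and −0.05 in CD4+ Tc. Nfatc2 and Nfatc3 were nonetheless higher in replicate 1 than in replicate 2 of both genotypes, in both classes. Whether same-numbered mice shared a batch was not tested. The crossed block, added after seeing the data, called 63 in CD8+ Tc. Of 406 alternative values of single genes, 385 were labelled the same. Another 18 moved by at least the SD of the libraries. A further 3 passed the threshold where the main analysis did not, in the same direction, and 0 reversed a call. Tested values that stayed uncalled with the same sign counted as the same whatever their size, as did changes of sign smaller than the SD. No T_TEX-like cluster was named without integration or at the lower resolution, which gave no value there. Egr3, with 73 UMIs in CD8+ Tc, and 2 mice per genotype limit what could be detected.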

Other observations

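The other genes called between genotypes were Xlr, Prdm16 and Tigit in CD8+ Tc and Eps8l1 in CD4+ Tc. Xlr, on the X chromosome, was at 14.4 and 15.0 CPM in CD8+ Tc of the cre group and at 0 in both floxed libraries, and at 16.4 and 10.8 against 0 and 0 CPM in CD4+ Tc. Prdm16 was at 8.74 and 8.84 against 0 and 0.206 CPM in CD8+ Tc and at 10.3 and 17.0 against 0 and 0 CPM in CD4+ Tc. Eps8l1 had the opposite pattern in both classes, at 2.46 and 0.421 against 24.9 and 12.0 CPM in CD8+ Tc and at 0 and 0.258 against 28.2 and 13.4 CPM in CD4+ Tc. These 3 genes separated the genotypes in CD4+ Tc as well as in CD8+ Tc.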
